A study of Mus musculus with 2 samples.

Results

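Receptor subunits for glutamate, GABA and glycine were examined in the midbrain of mouse embryos at 12.5 days of development, in 2 RNA-seq libraries that form 1 group. The genes were taken by name: every protein-coding gene whose symbol belongs to the GABA-A (with rho), GABA-B, glycine, AMPA, kainate, NMDA, delta or metabotropic glutamate receptor families, which gave 52 of 43346 measured genes. The embryos were of strain B6NCrl and of mixed sex, pooled as 120 embryos in replicate 1 and 88 in replicate 2, with no treatment and no engineered allele named in the labels. Each library started from 10 ng of RNA longer than 200 nt. There is no second condition, so levels, subunit make-up and isoforms are described, and the only comparison is between the 2 libraries.

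GABA-A and glycine receptors are pentameric chloride channels, and AMPA, kainate and NMDA receptors are tetrameric cation channels. The subunits a cell makes decide which channel it can assemble, how fast that channel closes and where it is anchored. GABA-B and metabotropic glutamate receptors instead signal through G proteins. At this stage the midbrain holds dividing progenitors beside young neurons, which carry GABA and glutamate receptors before most synapses form.

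Depth and tissue make-up bear on every value below. The libraries held 28212923 and 36082643 counts on genes, of which the 52 receptor genes took 0.0654% and 0.0593%. All 6 midbrain markers were at 1 TPM or more in both libraries, and 5 of 5 hindbrain markers were under 1 TPM in both. Forebrain markers were also present (8 of 8), as were markers of postmitotic neurons (8 of 8), progenitors (7 of 7), red cells (5 of 5), endothelium (5 of 5), mesenchyme (5 of 5), microglia (5 of 5) and the oligodendrocyte lineage (4 of 4). The counts were 1 of 4 for astrocytes, 3 of 5 for choroid plexus, 7 of 8 for surface and other epithelium, and 3 of 7 for skeletal muscle and cartilage. Among all protein-coding genes 60.6% were at that level. These counts give the genes of a list at 1 TPM or more and do not show that the cell type was present. In such bulk tissue, fewer cells of a type and less RNA per cell cannot be told apart.

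Of the 52 genes, 34 were at 1 TPM or more in both libraries, 17 were under 1 TPM in both, and the NMDA subunit gene Grin2d was split at 1.05 and 0.39 TPM. TPM, an abundance scaled to the same total in each library, is a level corrected for transcript length, so it can be compared between genes. Among all protein-coding genes 60.6% were at 1 TPM or more in both libraries and 37.6% were under 1 TPM in both, close to the shares of the receptor genes. The detected receptor genes were of modest abundance: their median level was 4.79 TPM, against 21.9 TPM over 13006 detected protein-coding genes. Gria2 and Gabbr1 lay above that median.

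**Figure D1:**
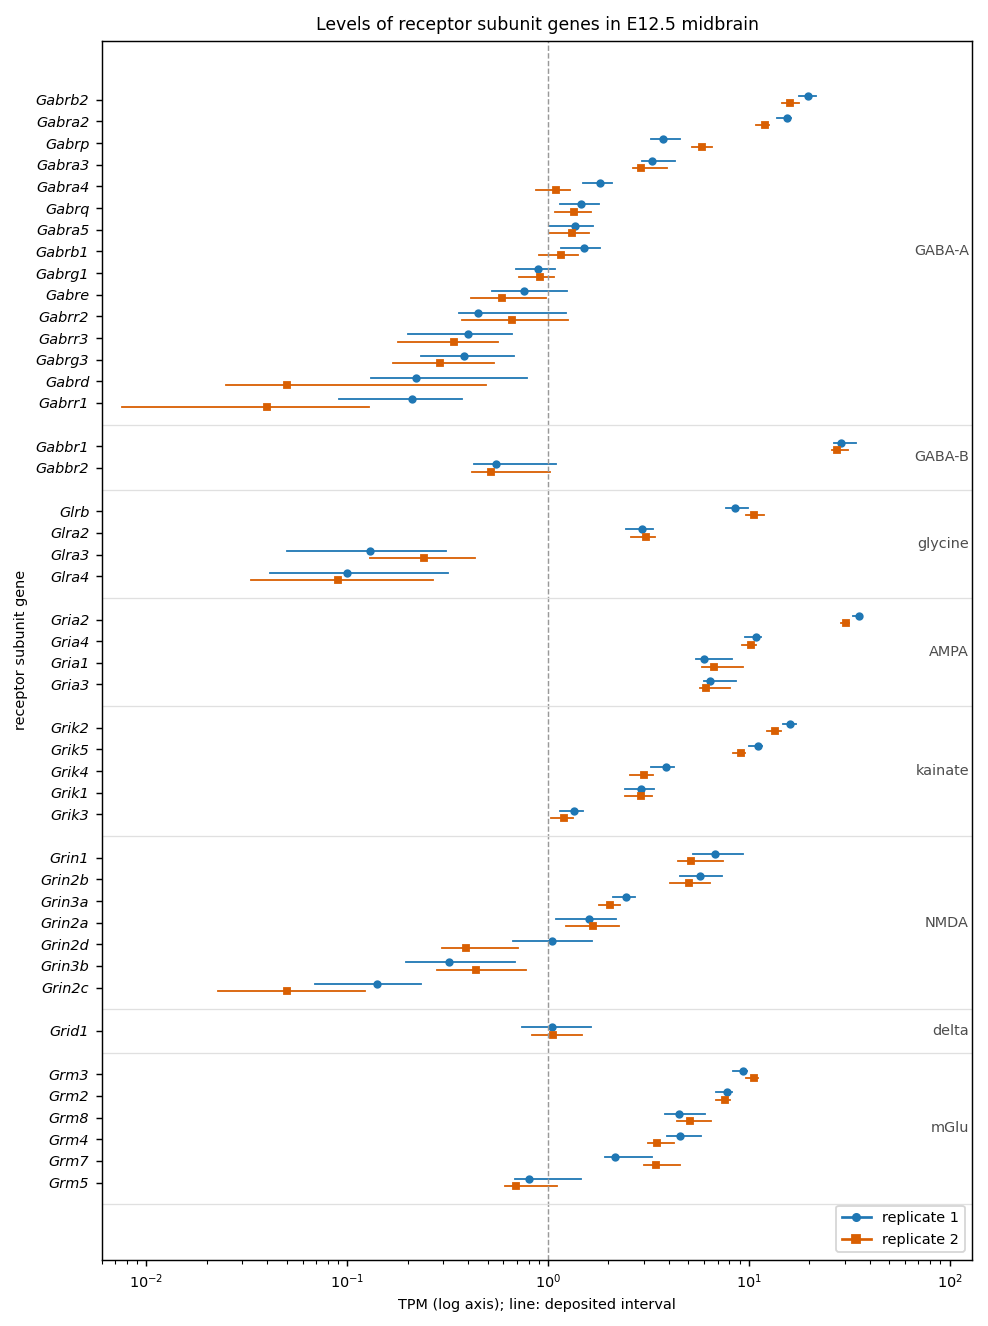
TPM on a log axis for 44 receptor subunit genes by receptor class, with replicate 1 as circles, replicate 2 as squares and the deposited interval as a line. The dashed line marks 1 TPM. Gabra6 and Grm6 (0 in both libraries) and Glra1 (0 in replicate 1) are left out. Of the genes drawn, Gria2 and Gabbr1 lie farthest to the right.

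Summed over their members, GABA-A subunit genes were the most abundant class, with 109.5 and 89.9 TPM in replicates 1 and 2. AMPA subunit genes followed at 58.5 and 53.6 TPM. Kainate subunit genes held 35.3 and 29.8 TPM, metabotropic glutamate receptor genes 29.9 and 31.5 TPM, and the GABA-B genes 29.4 and 28.1 TPM. These last 3 sums overlapped in rank between the libraries: kainate was highest of them in replicate 1 and metabotropic in replicate 2. NMDA subunit genes summed to 18.0 and 14.8 TPM and glycine receptor genes to 11.7 and 14.1 TPM. Without transcripts annotated as noncoding, decay or incomplete, AMPA was at 32.8 and 29.9 TPM and kainate at 35.4 and 29.8 TPM. AMPA was then lower than kainate in replicate 1 and nearly equal to it in replicate 2. This step kept transcripts that the GENCODE M21 annotation does not hold, which made up 100% and 90.5% of Grik2. Kainate therefore lost almost nothing, and the classes were not reduced alike. The second place of AMPA depends on how such transcripts are counted. A sum over a class counts subunit messages and not receptors.

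Among the alpha subunits, which form the GABA site together with beta, Gabra2 was at 15.5 and 12.03 TPM and Gabra3 at 3.28 and 2.92 TPM. Gabra4, a subunit of extrasynaptic receptors, was at 1.82 and 1.10 TPM. Gabra5, whose receptors lie mostly outside synapses in adult hippocampus, was at 1.37 and 1.31 TPM. Of these 4 genes Gabra2 was the highest in both libraries. Gabra6, known from cerebellar granule cells, had 0 counts in both libraries, which allows up to 3 counts, worth 0.0825 and 0.0652 TPM.

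Among the beta subunits, Gabrb2 was at 19.7 and 16.1 TPM and Gabrb1 at 1.51 and 1.16 TPM. Gabrb2 was more than 10 times Gabrb1 in both libraries.

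Several further subunit genes were low. Gabrp, for the pi subunit that is best known outside the nervous system, was at 3.74 and 5.82 TPM. Gabrq, for the theta subunit of some hypothalamic and monoamine neurons, was at 1.46 and 1.34 TPM. Gabrg1, Gabre, Gabrg3 and Gabrd, for the gamma1, epsilon, gamma3 and delta subunits, had mean levels from 0.135 to 0.900 TPM. The retinal rho subunit genes Gabrr1, Gabrr2 and Gabrr3 had mean levels from 0.125 to 0.555 TPM.

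**Figure D2:**
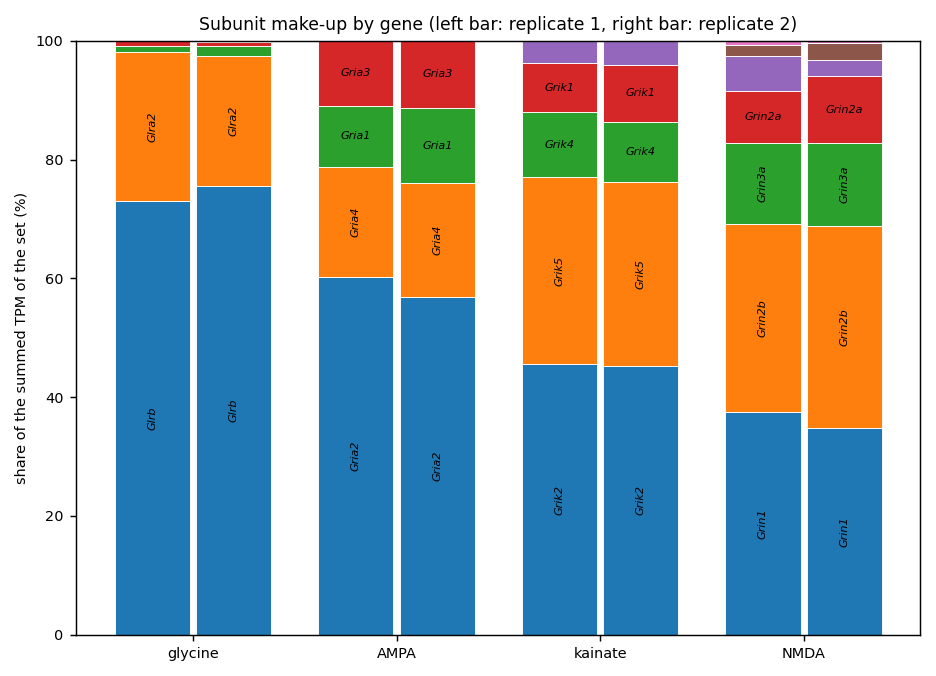
Share of the summed TPM held by each gene within the glycine, AMPA, kainate and NMDA sets of receptor subunit genes, with replicate 1 in the left bar and replicate 2 in the right bar of each pair. Larger segments carry the gene symbol. Glrb and Gria2 each hold more than 50% of their set in both libraries.

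Many GABA-A subunit genes lie in clusters, taken here as genes within 1 Mb of the next. The chromosome 5 cluster (Gabrg1, Gabra2, Gabra4, Gabrb1) summed to 19.7 and 15.2 TPM, most of it from Gabra2. The X chromosome cluster (Gabre, Gabra3, Gabrq) summed to 5.50 and 4.85 TPM. Mean levels ran from 0.900 to 13.8 TPM in the chromosome 5 cluster and from 0.675 to 3.10 TPM in the X cluster, so genes of different level stood side by side in each.

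**Figure D3:**
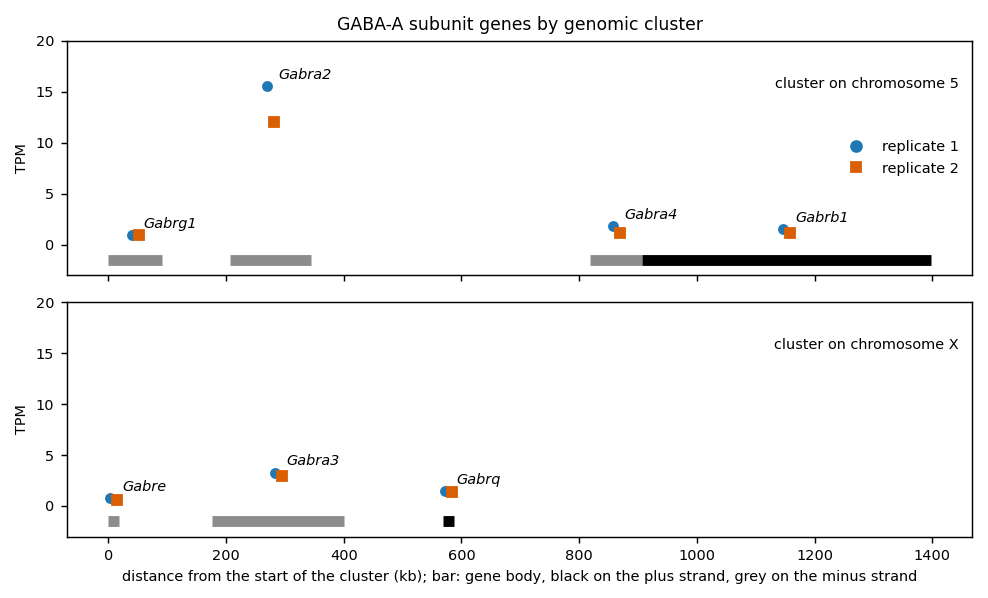
Levels of GABA-A subunit genes (TPM, linear axis) against their distance in kb from the start of the cluster on chromosome 5 and the cluster on the X chromosome, with replicate 1 as circles and replicate 2 as squares, set slightly apart at the middle of the gene. Bars below 0 are gene bodies. Gabra2 rises above its 3 neighbours on chromosome 5, which lie under 2 TPM.

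The GABA-B genes were an unequal pair of partners. Gabbr1 encodes the subunit that binds GABA, and Gabbr2 the subunit that carries it to the surface and couples to G proteins; both are needed for a working receptor. Gabbr1 (chr17:37045966-37075067, plus strand) was at 28.9 and 27.6 TPM. Gabbr2 was at 0.55 and 0.52 TPM, from 55 and 66 counts. The ratio of Gabbr1 to Gabbr2 was 52.5 in replicate 1 and 53.1 in replicate 2. Gabbr1 has several starts: the upstream one gives the 1a form with its sushi domains, the downstream one the 1b form without them. Complete coding models from upstream starts held 18.1 and 18.8 TPM and the 1b model 4.05 and 3.52 TPM, so the upstream forms made up 81.7% and 84.3% of the 2. Of the upstream models, a 5248-nt one held 10.9 and 12.8 TPM. Shorter ones of 1460 and 1595 nt held 4.21 and 4.85 TPM and 3.02 and 1.16 TPM. Whether the shorter ones give the full 1a form was not analysed, so the 1a share may be lower.

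Glycine receptor genes were led by Glrb, the beta subunit, which binds the scaffold gephyrin and cannot form a channel without alpha. It was at 8.55 and 10.6 TPM. Glra2, the alpha subunit of fetal receptors, was at 2.94 and 3.06 TPM, 92.7% and 89.2% of the alpha total. Glrb was 2.91 and 3.47 times Glra2. Glra1, the main adult alpha of the spinal cord, was listed at 0 in replicate 1 (3 counts would be worth 0.0857 TPM) and at 0.04 TPM in replicate 2. Glra3 and Glra4 had mean levels of 0.185 and 0.0950 TPM.

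All 4 AMPA subunit genes were detected in both libraries. Gria2 (chr3:80681450-80802835, minus strand) was at 35.3 and 30.5 TPM, or 60.3% and 56.9% of the class. It encodes GluA2, the subunit that keeps calcium out of AMPA receptors once its message has been edited. Gria4 was at 10.9 and 10.3 TPM. Gria3 was at 6.39 and 6.09 TPM and Gria1, known for its role in synaptic plasticity, at 6.0 and 6.75 TPM. The order of these last 2 turned between the libraries, and their deposited intervals overlapped in both.

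AMPA subunits come in flip and flop forms, which differ in a single alternative exon near the end of the ligand-binding domain and in how fast the channel desensitises. Flip is known as the prevailing form of embryonic brain. In each of the 4 genes the flop exon precedes the flip exon and both are 115 nt long. The exons of Gria2 and Gria1 are shown because their differing bases are part of what separates the forms. Capitals mark the bases that differ within the pair, 36 in each gene, and the letters come from the GENCODE M21 transcripts on GRCm38. Gria2 flip lies at chr3:80690404-80690518 and flop at chr3:80691320-80691434, both on the minus strand; Gria1 flip lies at chr11:57310608-57310722 and flop at chr11:57309769-57309883, both on the plus strand.
Gria2 flip: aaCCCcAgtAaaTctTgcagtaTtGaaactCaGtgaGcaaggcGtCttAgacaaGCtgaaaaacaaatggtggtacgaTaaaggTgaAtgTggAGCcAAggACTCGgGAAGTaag
Gria2 flop: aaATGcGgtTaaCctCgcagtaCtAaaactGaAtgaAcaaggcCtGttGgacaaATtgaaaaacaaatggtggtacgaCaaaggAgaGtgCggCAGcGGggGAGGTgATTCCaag
Gria1 flip: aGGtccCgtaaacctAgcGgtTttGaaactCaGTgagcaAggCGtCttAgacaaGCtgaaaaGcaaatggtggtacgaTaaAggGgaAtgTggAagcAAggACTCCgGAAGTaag
Gria1 flop: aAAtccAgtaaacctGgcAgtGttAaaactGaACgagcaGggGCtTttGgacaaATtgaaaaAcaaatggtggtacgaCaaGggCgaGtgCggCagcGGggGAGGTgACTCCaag
Of the 36 differing bases, 17 of Gria2 and 15 of Gria1 fall in the last 30 bases, and the longest run shared within a pair is 22 bases in Gria2 and 15 in Gria1.

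Flip transcripts exceeded flop transcripts in all 4 genes and both libraries. For Gria1, flip was at 5.31 and 5.24 TPM and flop at 0.25 and 0.28 TPM, so flip was 95.5% and 94.9% of the 2. For Gria2, flip was at 10.3 and 7.70 TPM and flop at 2.33 and 2.30 TPM, a flip share of 81.5% and 77%. The flip share was 100% and 86.2% for Gria3, where flop was listed at 0 in replicate 1 and at 0.57 TPM in replicate 2. It was 87.4% and 77.8% for Gria4. Gria1 and Gria2 differed from each other by more than their libraries did, while the ranges of Gria2 and Gria4 overlapped.

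**Figure D4:**
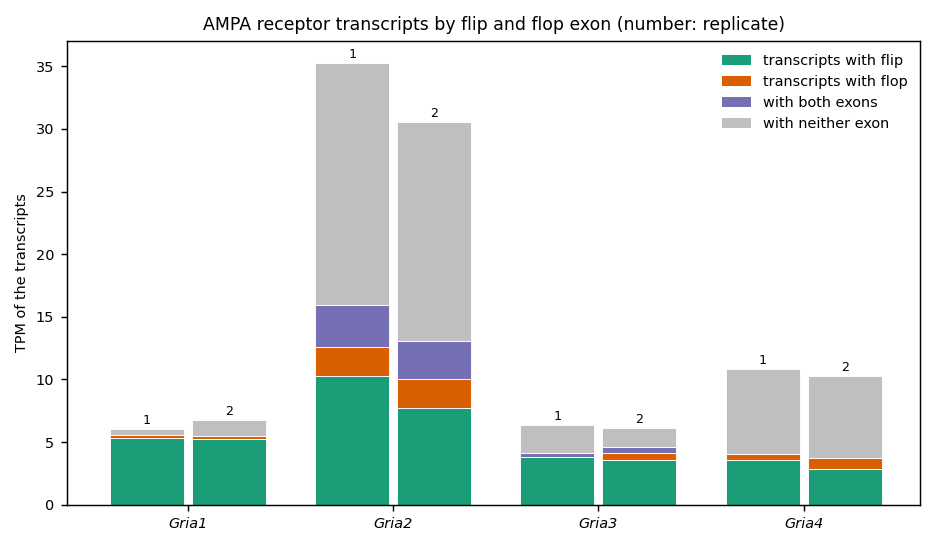
TPM of the transcripts of Gria1 to Gria4, split by whether they hold the flip exon, the flop exon, both or neither, with replicate 1 in the left bar and replicate 2 in the right bar of each pair. Flip exceeds flop in each pair of bars, and transcripts that list neither exon at its exact bounds make up most of Gria2 and Gria4.

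These shares rest on the transcripts that hold either exon, quantified as whole models that also differ outside the exons. The Gria2 flip model is 4026 nt long and the flop model 10371 nt, so reads outside the exons can also separate them. By counts, Gria2 flip was at 713 and flop at 424 in replicate 1, and at 677 and 530 in replicate 2. For Gria2, 54.9% and 57.3% of the TPM was assigned to transcripts that list neither exon at its exact bounds. All of them are annotated as retained-intron models, led by a 3462-nt model at 13.5 and 11.8 TPM. A model that holds an exon's bases within a longer exon would also be counted there. A further transcript with both exons, annotated as subject to decay, was at 3.34 and 3.03 TPM and enters neither share. For Gria4, 62.7% and 64.0% was assigned to a 2338-nt coding model that ends before the exons. With complete coding models alone, Gria2 was at 12.6 and 10.0 TPM and close to Gria4 at 10.9 and 10.3 TPM. The lead of Gria2 among AMPA subunit genes therefore depends on how retained-intron transcripts are counted.

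All 5 kainate subunit genes were detected. Grik2, for GluK2, a subunit that forms channels by itself, was at 16.1 and 13.5 TPM, or 45.5% and 45.3% of the class. Grik5, for the high-affinity subunit GluK5 that needs such a partner, was at 11.2 and 9.20 TPM. The ratio of Grik2 to Grik5 was 1.44 and 1.47. Grik4, the other high-affinity subunit gene, was at 3.85 and 3.00 TPM, and the partner genes Grik1 and Grik3 were at 2.91 and 2.89 TPM and at 1.35 and 1.2 TPM. In Grik2, 73.7% and 75.2% of the TPM belonged to a 4800-nt transcript that GENCODE M21 does not hold, so its coding status was not analysed here.

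NMDA receptors need the GluN1 subunit of Grin1 together with GluN2 or GluN3 subunits. Grin1 was at 6.76 and 5.13 TPM. Grin2b, the GluN2 gene of immature neurons, was at 5.71 and 5.03 TPM, or 67.2% and 70.4% of the GluN2 total. Grin2a, known to rise after birth, was at 1.60 and 1.67 TPM, and Grin3a, whose subunit lowers calcium entry, at 2.44 and 2.04 TPM. Grin2c and Grin3b had mean levels of 0.0950 and 0.380 TPM. Grin3b shares exon bases with Tmem259 on the other strand, which was at 15.4 and 17.2 TPM, and the strand of the reads is not given in the sources used here, so its low value is uncertain.

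Short and retained-intron models also weighed on NMDA levels. For Grin2b, 65.3% and 55.8% of the TPM came from transcripts with incomplete coding models, led by a 703-nt model with 39.9 and 29.1 counts. For Grin2a, 80.5% and 83.8% came from retained-intron models. The class summed to 8.99 and 7.96 TPM once such transcripts were left out, against 18.0 and 14.8 TPM with them. Grin1 was the single case among 12 genes at 5 TPM or more with several transcripts in which the top isoform differed between libraries. Its 63-nt cassette exon near the start of the protein was assigned 0.38 TPM in replicate 1 and 0 in replicate 2, against 3.08 and 3.25 TPM for transcripts without it. The exon was thus in 11.0% and 0% of the spanning transcripts by TPM, but in 42.5% and 28.2% by posterior mean TPM, so its share is not settled by these values.

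Of the delta receptor genes, whose products bind cerebellins at synapses and are not gated by glutamate, Grid1 was at 1.05 and 1.06 TPM.

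The metabotropic glutamate receptors fall in 3 groups, of which group I raises calcium and groups II and III lower cyclic AMP. Group II led, with Grm3 at 9.34 and 10.6 TPM and Grm2 at 7.78 and 7.64 TPM. Of the group III genes, which include autoreceptors of nerve endings, Grm8 was at 4.50 and 5.11 TPM, Grm4 at 4.52 and 3.49 TPM and Grm7 at 2.16 and 3.46 TPM. The order of Grm4 and Grm8 turned between the libraries, and Grm4 and Grm7 were nearly equal in replicate 2. The fourth group III gene, Grm6 of retinal bipolar cells, had 0 counts in both libraries, which allows up to 3 counts, worth 0.0521 and 0.0412 TPM. Groups II and III summed to mean levels of 17.7 and 11.6 TPM.

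Of the 34 detected genes 9 had 1 annotated transcript, and in 15 of the other 25 complete coding models held over 75% of the TPM in both libraries. They held under 50% in both libraries for 5 genes, among them Gria2, Grin2b, Grin2a and Grik2, the last because most of it is not in GENCODE M21. The single transcript of Gabra2 is annotated there as subject to nonsense-mediated decay. Of the 189 receptor transcripts quantified, 181 are in M21 and 152 have the same length there.

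The 2 pools were then compared gene by gene. Replicate 2 was set against replicate 1 by an exact binomial test of the counts, adjusted over all tested genes, which compares these 2 libraries and not conditions. A gene was called when its adjusted p was under 0.05 and the libraries differed at least 1.5-fold. Of the 34 receptor genes tested at a mean of 1 TPM or more, 1 was called higher in replicate 2 (all genes: 2.14%) and 1 lower (all genes: 1.41%), together 2 of 34 against 3.55% of all genes. The count is close to that background.

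Gabrp was the gene called higher. It had 211 counts (3.74 TPM) in replicate 1 and 415 counts (5.82 TPM) in replicate 2, and the deposited intervals of the libraries did not overlap. The scaled ratio was 1.52 (95% interval 1.29 to 1.81; exact binomial test, adjusted p = 7.49e-06). Gabrp lies on chr11:33550781-33578959, away from the other GABA-A clusters. Epithelial markers, a list chosen after values were seen, were higher in replicate 2 for 7 of 8 genes, and none was called (all genes: 3.55%). Their sum was 29.6 and 38.0 TPM, their median log2 ratio was 0.42, and none was at 0. This was not particular to epithelium. Markers of mesenchyme, red cells and microglia were higher for 5 of 5 genes each and those of endothelium for 4 of 5. Those of postmitotic neurons and forebrain were lower for 7 of 8 each. The part of any of these tissues in the difference of Gabrp was not tested.

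Gabra4 was the gene called lower. It had 130 counts (1.82 TPM) in replicate 1 and 99 counts (1.10 TPM) in replicate 2, and the deposited intervals were again apart. It was 1.69-fold lower in replicate 2 (ratio 0.590, 95% interval 0.449 to 0.772; exact binomial test, adjusted p = 0.000766). Gabra4 on chr5:71569749-71658308 shares exon bases in GENCODE M21 with Gabrb1 on the other strand, which starts at 71658113. Gabrb1 was at 1.51 and 1.16 TPM, and whether reads of the pair were split was not tested.

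Both ratios lie near the 1.5-fold limit, and the exact binomial test covers counting error only. With edgeR's exact negative binomial test, which adds the dispersion estimated between these libraries, none of the 34 was called, against 1.32% of all genes, and 3 had an unadjusted p under 0.05. The adjusted p was then 0.267 for Gabrp and 0.205 for Gabra4.

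Smaller differences mostly ran in 1 direction. At any ratio, 12 of the 34 had an adjusted p under 0.05 (all genes: 26.4%). Of these, 9 were lower in replicate 2 (all genes: 14.1%) and 3 were higher (all genes: 12.3%), by the exact binomial test. Among the 9 were Gria2, Gabrb2, Grik2, Gabra2, Grik5, Grik4 and Gabra4, with the leading gene of the AMPA and of the kainate class. Gria2 was 1.18-fold lower (ratio 0.847, 95% interval 0.803 to 0.893), from 2599 counts in replicate 1 and 2843 in the deeper replicate 2. The 3 higher genes were Gabrp, Grm7 (ratio 1.44, 140 and 261 counts) and Glrb (ratio 1.19, 407 and 628 counts). None of the 12 kept an adjusted p under 0.05 with edgeR's exact negative binomial test.

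By direction alone, 25 of the 34 were lower in replicate 2, or 73.5%, against 50.3% of all tested genes. The median log2 ratio of the 34 was -0.14 and that of all tested genes was -0.00. By class, 10 of 11 GABA-A, 4 of 4 AMPA, 5 of 5 kainate and 4 of 4 NMDA genes were lower, and 2 of 5 metabotropic genes. Both detected glycine receptor genes, Gabbr1 and the other 3 metabotropic genes were higher. Differences between classes were not tested. Class medians of the log2 ratio were -0.22 for GABA-A, -0.11 for AMPA, -0.29 for kainate and -0.17 for NMDA genes, and 0.14 for glycine and 0.15 for metabotropic genes.

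Cell type markers moved between the pools too. Markers of postmitotic neurons were lower in replicate 2 for 7 of 8 genes (median log2 ratio -0.14, summed level 2015 and 1903 TPM), and those of forebrain for 7 of 8 (median -0.42, 277.2 and 188.5 TPM). Progenitor markers were lower for 4 of 7 and higher for 3 (median -0.11, 2806 and 2818 TPM). Markers of mesenchyme were higher for 5 of 5 genes (median 0.45, 1069 and 1517 TPM), as were those of red cells (median 0.15) and microglia (median 0.35). Endothelium markers were higher for 4 of 5 (median 0.22). Midbrain markers were lower for 2 of 6 and higher for 4 (median 0.13, 239.6 and 235.6 TPM). Some single markers moved more than these medians. Of 4 choroid plexus markers at a mean of 1 TPM or more, 2 were called lower and 1 higher (all genes: 3.55%). The log2 ratio was -1.52 for Ttr, -2.79 for Kcne2 and 0.67 for Aqp1. Of 4 oligodendrocyte lineage markers 1 was called lower, Olig2 (-0.93), while Pdgfra was higher (0.52). Of 8 forebrain markers 3 were called lower and 1 higher. No marker named in these lists was at 0 in both libraries. The part of tissue make-up in the receptor differences was not tested.

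**Figure D5:**
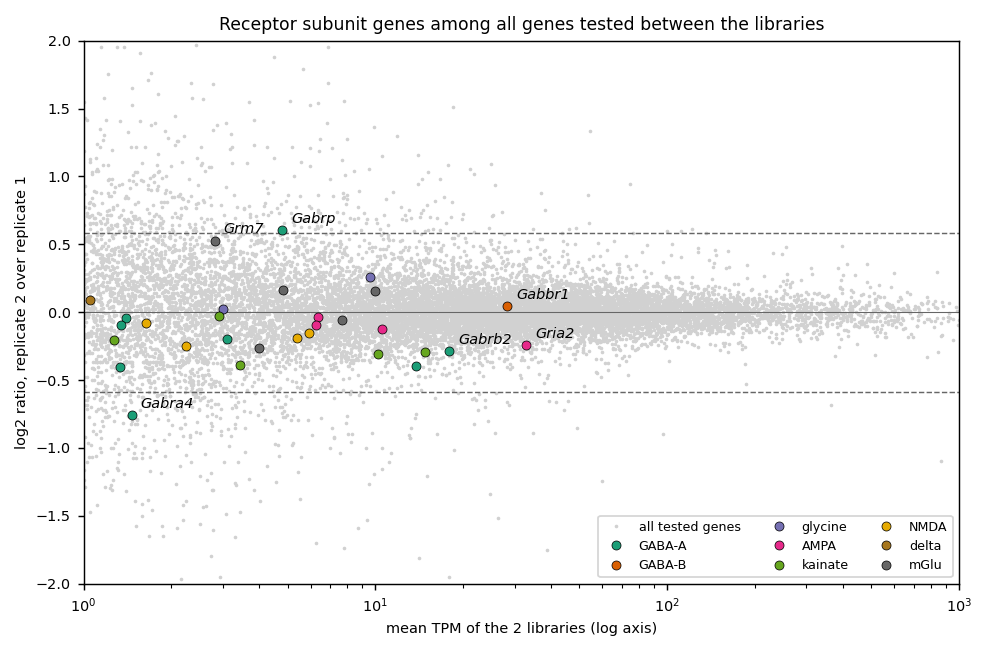
Log2 ratio of replicate 2 over replicate 1 against mean TPM on a log axis, for all tested genes at a mean of 1 TPM or more (grey) and 30 receptor subunit genes coloured by class. Dashed lines mark 1.5-fold, and 138 genes outside the drawn range are left out. Gabrp lies above the upper line, Gabra4 below the lower line, and 22 of the 30 coloured genes lie below 0.

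Partners that carry and anchor these receptors were taken from a list. Of 30 auxiliary and scaffold genes of glutamate receptors, 28 were at 1 TPM or more in both libraries (protein-coding genes: 60.6%). None was called between the libraries (all genes: 3.55%). The highest were Cnih2, a cornichon that helps AMPA receptors leave the endoplasmic reticulum, at 195 and 165 TPM, Homer3, a scaffold of group I metabotropic receptors, at 80.4 and 82.0 TPM, Pick1, which binds the end of GluA2, at 48.9 and 56.4 TPM, and Neto2, a kainate receptor partner, at 31.6 and 29.2 TPM. Of these genes 23 of the 28 at a mean of 1 TPM or more were lower in replicate 2, with a median log2 ratio of -0.14, against -0.14 for the receptor genes.

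Of 16 auxiliary and scaffold genes of GABA and glycine receptors, 15 were detected (protein-coding genes: 60.6%). Gabarap, Gabarapl2, Ubqln1 and Gabarapl1, which act in trafficking and also in autophagy or protein turnover, led at mean levels of 458.0, 291.8, 131.8 and 79.3 TPM. Kctd12, a partner of GABA-B receptors, was called higher in replicate 2, from 7.01 TPM (448 counts) to 10.4 TPM (937 counts). Its log2 ratio was 0.69 (exact binomial test, adjusted p = 6.15e-16), and it was the only call among the 15 genes (all genes: 3.55%). That test covers counting error only. Only 5 of the 15 scored genes were lower in replicate 2 (median log2 ratio 0.01).

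The machinery for the transmitters themselves was present. Of 22 genes for synthesis and transport of glutamate, GABA and glycine, 18 were detected (protein-coding genes: 60.6%). They were led by Glul, which makes glutamine, at 86.4 and 96.0 TPM. Next came Shmt2, which makes glycine in mitochondria, at 50.3 and 52.1 TPM, and Gad2, which makes GABA, at 52.2 and 44.0 TPM. The glutamate transporter gene Slc1a3 was at 38.9 and 45.9 TPM. Slc6a13, a GABA transporter known from meninges and other border tissues, was called higher in replicate 2, at 5.17 TPM (172 counts) and 8.89 TPM (340 counts). Its log2 ratio was 0.61 (exact binomial test, adjusted p = 5.74e-05), and it was the only call among the 18 genes (all genes: 3.55%). Again the test covers counting error only. Of the 18 scored genes 13 were lower in replicate 2 (median log2 ratio -0.08).

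All 5 chloride transporter genes were detected (protein-coding genes: 60.6%) and none was called (all genes: 3.55%). Slc12a7 led at 28.5 and 28.7 TPM, and Slc12a4 was at 9.16 and 10.5 TPM. Slc12a2, which brings chloride into young neurons, was at 5.86 and 6.62 TPM. Slc12a5, which exports chloride from mature neurons, was the lowest of the 5 at 5.75 and 5.13 TPM. In replicate 1 these last 2 levels were nearly equal. All 3 RNA editing genes were also detected without a call: Adar at 20.6 and 20.3 TPM, Adarb1, whose product edits the Gria2 message, at 8.49 and 7.66 TPM, and Adarb2 at 6.68 and 7.14 TPM. Of these genes 3 of the 5 transporters and 2 of the 3 editing genes were lower in replicate 2.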

How the data were processed

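The data are 2 RNA-seq libraries of E12.5 mouse midbrain. The deposited files hold expected counts, read numbers that an RSEM-type program estimated for every gene and transcript, per the file headers. They also hold TPM and a posterior mean TPM, which the authors scaled by effective length and library size, per the file headers. Interval bounds of TPM were deposited as signal values in TPM, and the isoform percent of each transcript was deposited beside them. The deposited annotation is GENCODE M4 on mm10, and neither the aligner nor any version or read strand is given in the sources used here. The protocol field links a manual of a SMARTer Ultra Low kit although the libraries are labelled total RNA.

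Gene names, coordinates, transcript types and exon letters were read from GENCODE M21, in which 42462 of 43346 genes matched. Spike-ins, at 4.14% and 3.48% of all counts, and 26248 features that carry only a number did not enter library sizes. Expected counts were rounded. Genes with at least 10 counts in sum were tested by a two-sided exact binomial test with TMM-scaled library sizes from edgeR 4.0.16 and Benjamini-Hochberg adjustment over all of them. A call needed 1.5-fold or more between the libraries, 1 TPM or more on average and an adjusted p below 0.05. For log2 ratios 0.5 was added to each count. The binomial p-values, the 95% exact intervals of ratios and the floors of 3 counts cover counting error only, not the spread between pools. The counts of the libraries differed by more than sampling noise (chi-square per gene with a mean of 8.70 and a median of 1.74), so they were treated as 2 samples. Only the binomial calls were tested on simulated counts, which varied by counting error alone. Those counts lack the spread between pools, so that test cannot show whether calls near 1.5-fold are sound. The alternative exons were found from exon chains of coding transcripts. Glra2 has 1 transcript. Promoters and proteins were not analysed here.

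Counts and medians cover every gene of a list, and some genes are not reported here by name or value. From the lists of other genes the highest (up to 4) and all called genes are named. The receptor genes and the lists were chosen with earlier results of these data known, and the epithelium list and the muscle and cartilage list after values were seen. Alternatives were DESeq2 1.42.0 size factors, total counts, other count, fold and TPM thresholds, edgeR's exact negative binomial test, other pseudocounts, posterior mean TPM, rescaled TPM, transcript types and leaving out each library.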

Additional observations from a re-analysis of the deposited data

How the results depend on the processing

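The 2 calls between the libraries were the same genes, Gabrp and Gabra4, under DESeq2 size factors, total counts, no minimum count and 0 or 5 counts added. The count was 0 at a 2-fold limit (all genes: 1.40%) and 0 with edgeR's exact negative binomial test (all genes: 1.32%), where 0 of the 34 had an adjusted p under 0.05 and 3 an unadjusted p under 0.05. With a mean TPM limit of 0.1 it was 3 (all genes: 4.44%), with Grin2d added. In all these settings 25 of the 34 genes were lower in replicate 2. Only the scaling and the counts added change the ratios. The count, fold and TPM limits and edgeR's test leave them as they were, so these could not alter that number. By deposited TPM, the intervals of 7 of the 12 genes with an adjusted p under 0.05 were apart, and those of the other 5, among them Gabrb2, Glrb, Grik4 and Grm7, overlapped. The number of detected genes was 34 to 35 when a library was left out, 34 with posterior mean TPM, 35 with rescaled TPM, 39 at 0.5 TPM (64.3% of protein-coding genes), 27 at 2 TPM (56.2%) and 32 without transcripts annotated as noncoding, decay or incomplete, an alternative chosen after the data were seen. That alternative kept transcripts not in M21 and every transcript of a gene with no complete coding model, so Gabra2 kept its decay transcript.

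TPM rescaled over nuclear protein-coding genes raised every class sum, to 126.3 for GABA-A, 36.4 for GABA-B, 16.3 for glycine, 71.0 for AMPA, 41.2 for kainate, 20.7 for NMDA and 38.8 for metabotropic genes, by its construction. Posterior mean TPM gave 30.1 for GABA-B and 31.9 for metabotropic genes. Without the transcripts named above, the sums were 22.8 for GABA-B, 10.9 for glycine, 31.4 for AMPA (kainate was at 32.6), 8.48 for NMDA and 26.9 for metabotropic genes, and the shares were 97.7% for Gabbr1, 35.9% for Gria2 and 66.3% for Grin2b. Posterior mean TPM gave shares of 97.7% for Gabbr1, 86.2% for Glra2 and 45.8% for Grik2, flip shares of 92.5% for Gria1 and 73.4% for Gria4, and 35.3% for the 63-nt exon of Grin1. The Grin1 exon was 0 to 11.0% of spanning transcripts when a library was left out, from 24.9 counts in replicate 1 and 0 in replicate 2. With 2 libraries, leaving one out gives the other's value, which lies within the spread by construction and shows no stability. No paired analysis was possible because the libraries form 1 group.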
